A study of Sus scrofa with 6 samples.

Results

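Cytosolic ribosomal protein genes were followed across 6 array hybridisations of porcine marrow stromal cells. Members were all probe sets with a single platform gene symbol of the form RPL or RPS plus a number, including symbols that end in A, X, L or L1, together with RPSA and the stalk genes RPLP0, RPLP1 and RPLP2, and without the RPS6K kinases. Where a gene had several probe sets, the one with the highest average level was used. This gave 41 genes, from 50 probe sets, of 10874 named genes and 27558 probe sets in all. They comprised 16 genes of the small, or 40S, subunit and 25 genes of the large, or 60S, subunit. RPLP0 and RPLP2 of the stalk were counted with the large subunit. RPSA, RPLP1, RPL11 and RPS19 had no probe set with a single symbol and were not analysed here. A further 9 probe sets carried a ribosomal protein symbol together with another symbol and were not used.

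The cells were primary mesenchymal stem cells at passage 0 from female American Yorkshire pigs aged 4 months. Marrow was taken from the symphysis of the mandible, where the lower jaw joins in the midline, for 3 cultures and from the tibia for 3 cultures, and 3 pigs supplied marrow of both sites. No treatment or genetic change separated the groups, so the site of the marrow was the only labelled difference. All cultures were started by plating unfractionated marrow in medium with 20% serum, and were harvested at 80% confluence. No cell was sorted, so other adherent marrow cells may have been present, and fewer cells of a type cannot be told apart from less RNA per cell. The labels number the arrays 1 to 3 within a site but tie no number to a pig, so the sites were compared as unpaired.

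Ribosomal proteins form the shell around the ribosomal RNAs of both subunits, and the ribosome needs most of them in equal amounts. Their mRNAs are abundant in dividing cells. They start with a terminal oligopyrimidine tract, called TOP, through which mTOR signalling controls their translation together. Ribosomal protein genes often serve as a readout of growth and as reference genes. The arrays measured RNA levels, which do not show control of translation. Many have processed pseudogene copies in mammalian genomes, and whether a probe set also detects such copies was not tested here.

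The deposited values are log2 levels, and array medians lay between 5.63 and 5.71. Levels of different probe sets are not comparable with each other, so each gene was compared with itself across arrays. The 13 measured stromal markers had mean levels of 7.46 or more, but 6 of them ranged over at least 1 log2 unit. THY1 measured between 10.50 and 10.70 on the 6 arrays, NT5E between 7.05 and 9.13 and the matrix gene POSTN between 4.50 and 11.89, and the leukocyte antigen PTPRC ranged from 3.42 to 7.66. The arrays did not fall by site. Over all probe sets, tibial 3 correlated with mandibular 3 at 0.9913 and with tibial 1 at 0.9646. Mandibular 2 correlated about equally with both sites, at 0.9836 with tibial 2, 0.9830 with mandibular 3, 0.9807 with tibial 3, 0.9802 with mandibular 1 and 0.9781 with tibial 1. These correlations are across probe sets, which are not independent replicates. Whether the labels of mandibular 2 and tibial 3 were exchanged was not tested, and an exchange would alter every difference between the sites given here. Results are therefore also given without these arrays, which earlier results of these data had singled out.

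No ribosomal protein gene was called between cultures of the jaw and the tibia. In the limma fit, 0 of 41 members had an adjusted p below 0.05, and 0 had an unadjusted p below 0.05. Over all 27558 probe sets the same fit called 0, which is 0%, and 836, or 3.03%, had an unadjusted p below 0.05. The members' differences, mandibular minus tibial, ran from -0.32 to 0.35 on the log2 scale. The median was 0.04, against 0.01 over the 10833 other named genes. Of the 41 members, 27 had the higher mean in mandibular and 14 in tibial cultures. The higher mandibular share was 65.9%, against 51.3% of the other named genes. At mean levels of at least 8 it was 64.5% of members and 59.6% of other named genes, with a median of 0.03 in both. When each array was centred on its own median, 35 members were higher in mandibular cultures and the median was 0.06. Of the other named genes, 57.6% were then higher, with a median of 0.03. The split also depended on single arrays: 40 members were higher without mandibular 2, 34 without tibial 3, 25 without tibial 2, 23 without tibial 1, 19 without mandibular 1 and 16 without mandibular 3. The members' median difference in these omissions ran from -0.02 to 0.12. Of the other named genes, 48.9% to 51.9% were higher in them. No direction between the sites is drawn from these counts.

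**Figure D1:**
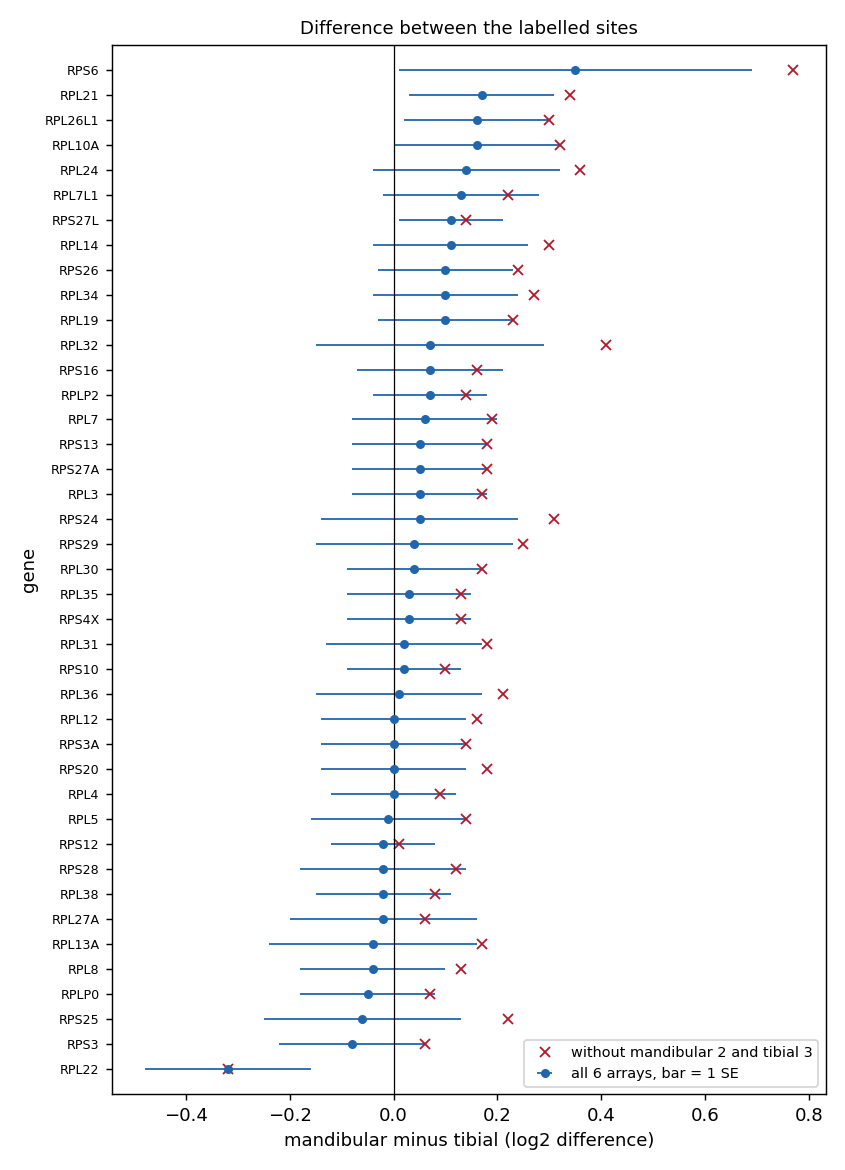
Mandibular minus tibial difference of each of the 41 ribosomal protein genes on the log2 scale; dots give the limma estimate from all 6 arrays with a bar of 1 standard error, and crosses give the estimate without mandibular 2 and tibial 3. The dots lie between -0.32 and 0.35 around 0, while 40 of the 41 crosses lie to the right of 0. The arrays left out had the lowest mandibular and the highest tibial mean of the list, so their omission by itself raises the list's mean difference.

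The spread of these genes over the arrays was small. The median range from the lowest to the highest of the 6 arrays was 0.39 log2 units for the members and 0.51 for the other named genes. It was 0.43 for the 581 other named genes with a mean level of at least 10. A range under 0.5 was found for 32 of 41 members, or 78.0%, against 49.1% of the other named genes. The members' spread differed by level. Of members with a mean level of at least 8, 28 of 31 had such a range, and 4 of 10 below 8. The median ranges were 0.35 and 0.59. Of other named genes with a mean level of at least 8, 57.9% had a range under 0.5. RPS29, RPL32 and RPL27A, described below for wide ranges, had mean levels of 6.17, 5.74 and 6.10. Small ranges were not particular to these genes: the share under 0.5 was 85% of translation factors, 77.8% of mTOR and MYC regulators and 72.2% of mitochondrial ribosomal proteins, with median ranges of 0.35, 0.31 and 0.37. Only RPS6 had a range of at least 1. The median standard deviation within a site was 0.16 for the members and 0.19 for the other named genes.

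The spread that was present ran the same way in nearly all members and did not follow the labelled sites. For 40 of 41 members the lowest array was mandibular 2, tibial 1 or tibial 2, against 58.7% of the other named genes. For 38 of 41 the highest array was mandibular 1, mandibular 3 or tibial 3, against 47.5%. The exceptions at the low end were RPL22, lowest on mandibular 3, and at the high end RPL13A, RPL27A and RPS12, highest on tibial 2, tibial 1 and tibial 2. This arrangement was not particular to ribosomal protein genes. Mandibular 2, tibial 1 or tibial 2 was lowest for 20 of 20 translation factors and 11 of 11 cell cycle genes. The same held for 55 of 57 ribosome biogenesis genes and 47 of 54 mitochondrial ribosomal proteins. Mandibular 1, mandibular 3 or tibial 3 was highest for 19, 11, 52 and 43 of them. For macrophage and monocyte genes both counts were 0 of 18. The arrays were grouped with their values known. The members are parts of 1 complex measured on the same 6 arrays and are not independent of each other.

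**Figure D2:**
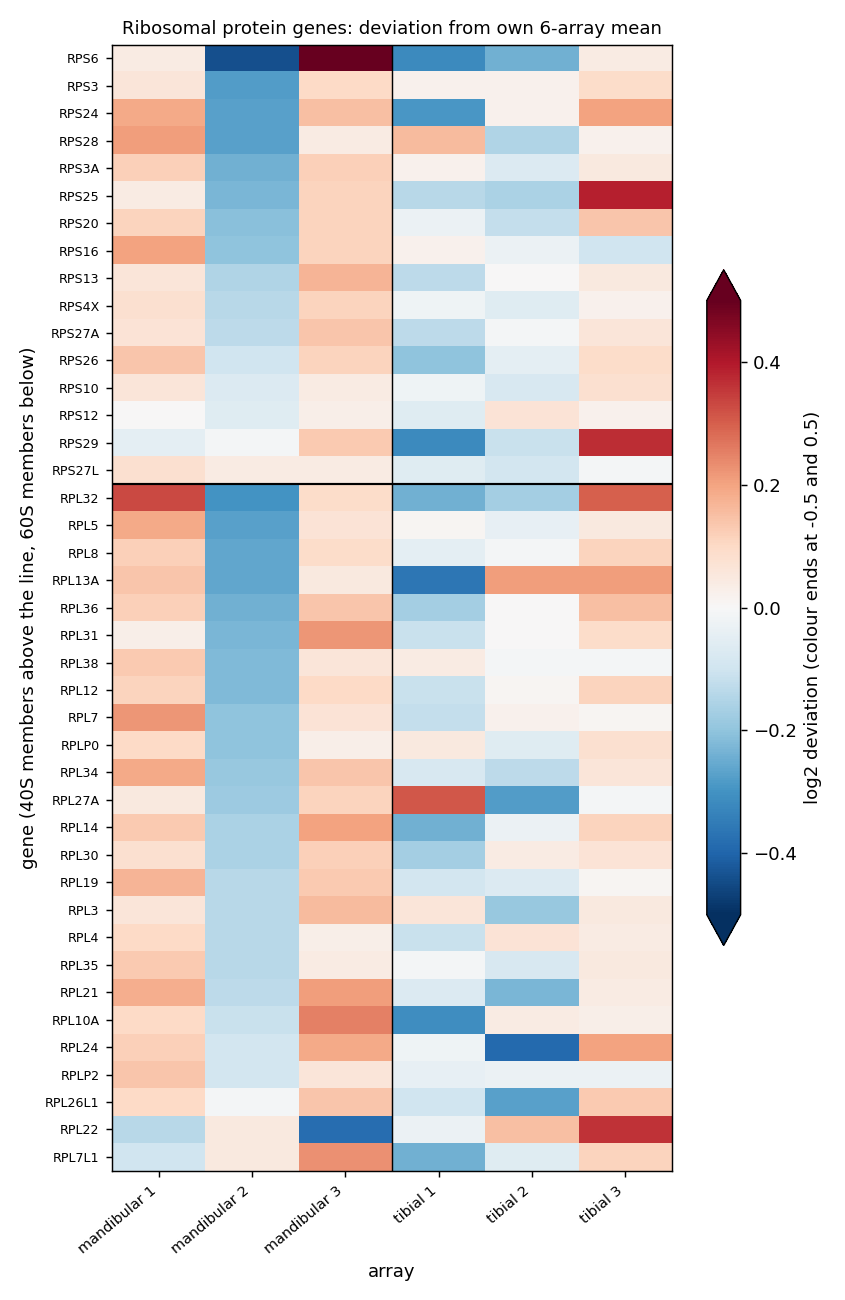
Deviation of each ribosomal protein gene from its own mean over the 6 arrays, in log2 units; rows are genes, with the 40S members above the line and the 60S members, including RPLP0 and RPLP2, below it, and columns are arrays. The mandibular 2 column is blue for 38 of 41 genes, and the mandibular 3 column is red for 40 of 41.

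Mandibular 2 had the lowest ribosomal protein levels. It was the lowest of the 6 arrays for 23 of 41 members, or 56.1%, against 14.8% of the other named genes. Tibial 1 was the lowest for 10 members, tibial 2 for 7 and mandibular 3 for 1, while mandibular 1 and tibial 3 were the lowest for 0. Of other named genes with a mean level of at least 8, 38.7% were lowest on tibial 1 and 13.2% on mandibular 2. The level on mandibular 2 was below both other mandibular arrays for 37 of 41 members, against 38.1% of the other named genes. Relative to the mean of mandibular 1 and 3, the median over the members was -0.29, or 1.22-fold lower. It was -0.03 for the other named genes and -0.01 for those with a mean level of at least 10. There is 1 such array, so this is a description of that array with no test.

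Tibial 3 stood on the other side of its group. Its level was above both other tibial arrays for 31 of 41 members, against 36.2% of the other named genes. The median over the members, relative to the mean of tibial 1 and 2, was 0.14, against 0.02 for the other named genes. Averaged over all 41 members, the deviation from each gene's own mean was 0.10 on mandibular 1, -0.16 on mandibular 2, 0.12 on mandibular 3, -0.09 on tibial 1, -0.06 on tibial 2 and 0.09 on tibial 3. The list mean was thus 9.70 ± 0.16 (SD, n = 3) for the mandibular arrays and 9.66 ± 0.10 (SD, n = 3) for the tibial ones.

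**Figure D3:**
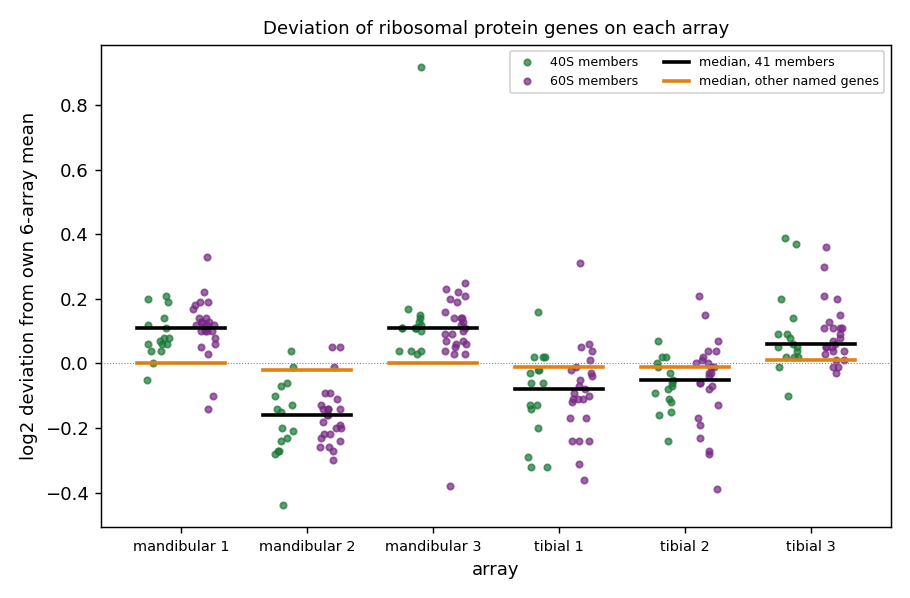
Log2 deviation of each ribosomal protein gene from its own 6-array mean, by array; points are genes (green for 40S, purple for 60S including the stalk), black bars are the median of the 41 members and orange bars the median of the other named genes. The black bars stand at 0.11 on mandibular 1 and 3 and at -0.16 on mandibular 2, while the orange bars stay between -0.02 and 0.01. The orange bars cover genes of all levels. For other named genes with a mean level of at least 8, not drawn, the median was -0.08 on tibial 1, as for the members, and 0.00 on mandibular 2.

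With mandibular 2 and tibial 3 left out, 40 of 41 members were higher in mandibular cultures, and the median difference was 0.17. It was 0.02 for the other named genes, of which 53% were higher. In that limma fit 0 of 41 members were called, with a smallest adjusted p of 0.535 among them, and 0 had an unadjusted p below 0.05. Over all probe sets it called 195, or 0.708%, and 2617, or 9.5%, had an unadjusted p below 0.05. Mandibular 2 and tibial 3 were singled out from these same data, so these counts are no independent test of the sites. The fit rests on 2 arrays for each site. The arrays left out had the lowest mandibular and the highest tibial mean deviation of the members, at -0.16 and 0.09. Their omission by itself therefore raises the mean difference of the list. Leaving out mandibular 2 alone also gave 40 of 41.

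Both subunits shared the arrangement. Among the 16 small-subunit members, 9 were lowest on mandibular 2, and the median of mandibular 2 relative to mandibular 1 and 3 was -0.29. Among the 25 large-subunit members, 14 were lowest on mandibular 2, and that median was also -0.29. The median site difference was 0.04 in each, with 11 of 16 and 16 of 25 members higher in mandibular cultures. The arrangement was seen at high and low levels. Of 31 members with a mean level of at least 8, 19 were lowest on mandibular 2, and of 10 members below 8 it was 4.

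The median range was 0.36 over the 16 small-subunit members. RPS12, a protein of the 40S head, had the smallest range of all members, at 0.13. RPS12 measured 13.32, 13.26 and 13.34 on mandibular 1 to 3 and 13.26, 13.39 and 13.34 on tibial 1 to 3. Its sites overlap, and the difference was -0.02 (SE 0.10). The next smallest ranges were those of RPS10, at 0.17, and RPS27L, at 0.18.

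RPS3, which lines the path where mRNA enters the 40S subunit, measured 12.16, 11.82 and 12.21 on mandibular 1 to 3 and 12.12, 12.12 and 12.19 on tibial 1 to 3. Only mandibular 2 departed from the other 5 arrays. The difference was -0.08 (SE 0.14), and 0.04 without that array. A second RPS3 probe set, with lower levels, measured 10.07 on mandibular 2 and 10.41 to 10.75 elsewhere.

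RPS25, which some viral RNAs need to start translation internally, measured 9.53, 9.26 and 9.60 on mandibular and 9.35, 9.33 and 9.88 on tibial 1 to 3. Mandibular 2 was the lowest and tibial 3 the highest of all 6 arrays, so the site means of 9.46 ± 0.18 (SD, n = 3) and 9.52 ± 0.31 (SD, n = 3) lay close together. The difference of -0.06 (SE 0.19) was 0.04 without mandibular 2, 0.12 without tibial 3 and 0.22 (SE 0.16) without both. RPS29, a small zinc-binding protein of the 40S head, ranged over 0.69, from 5.85 on tibial 1 to 6.54 on tibial 3. RPS4X, the copy of RPS4 on the X chromosome, measured 11.94, 11.72 and 11.98 on mandibular and 11.85, 11.80 and 11.89 on tibial 1 to 3, again lowest on mandibular 2.

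RPS27A is made as a fusion of ubiquitin with a 40S protein. It measured 11.47, 11.28 and 11.55 on mandibular and 11.27, 11.40 and 11.47 on tibial 1 to 3, with overlap between the sites and a difference of 0.05 (SE 0.13). FAU, which the symbol rule does not cover, encodes a ubiquitin-like protein fused to a 40S protein. FAU was lowest on mandibular 2, at 10.77, and 10.96 to 11.12 elsewhere. RPL36AL, a relative of RPL36A that the rule also leaves out, was lowest on tibial 2, at 10.49, and next lowest on mandibular 2, at 10.59.

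RPS6, the 40S protein phosphorylated by S6 kinases, had the largest range of all members, at 1.36, but its probe set read low. RPS6 measured 4.08, 3.60 and 4.96 on mandibular and 3.71, 3.79 and 4.08 on tibial 1 to 3, while the lower quartile of all values was 3.86 to 3.94 on the arrays. Such levels cannot be separated from background. The difference of 0.35 (SE 0.34, adjusted p = 0.9995 in limma) was -0.02 without mandibular 3, the array with the highest value, and 0.66 without mandibular 2.

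Large-subunit members include the proteins around the catalytic centre and the stalk. RPL3, which reaches toward the peptidyl transferase centre, measured 10.54, 10.35 and 10.64 on mandibular and 10.55, 10.30 and 10.53 on tibial 1 to 3. Its lowest value was on tibial 2 and the next lowest on mandibular 2, and the sites overlap. RPLP0 anchors the stalk that recruits elongation factors. RPLP0 measured 11.88, 11.57 and 11.80 on mandibular and 11.83, 11.71 and 11.86 on tibial 1 to 3, lowest on mandibular 2. Its difference was -0.05 (SE 0.13), and 0.04 without mandibular 2. RPLP2, an acidic protein of the same stalk, was also lowest on mandibular 2, at 9.71, while its 3 tibial values were 9.76, 9.77 and 9.77.

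RPL5, which carries 5S ribosomal RNA and, when not built into ribosomes, binds the p53 inhibitor MDM2, measured 11.59, 11.13 and 11.47 on mandibular and 11.41, 11.36 and 11.45 on tibial 1 to 3. Relative to the mean of the other mandibular arrays, mandibular 2 stood at -0.40, while the 3 tibial values lay within the mandibular range. RPL5 differed by -0.01 (SE 0.15) between sites, and by 0.12 without mandibular 2. RPL7 was likewise lowest on mandibular 2, at 6.39, and highest on mandibular 1, at 6.81. RPL38, which mouse embryos need for translation of some Hox mRNAs, was named after its values were seen. It measured 10.91, 10.56 and 10.84 on mandibular and 10.82, 10.77 and 10.77 on tibial 1 to 3, a difference of -0.02 (SE 0.13).

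RPL21, among members with higher mandibular means, had the smallest unadjusted p. RPL21 measured 10.59, 10.28 and 10.62 on mandibular and 10.34, 10.18 and 10.45 on tibial 1 to 3. The mandibular 2 value fell within the tibial range, and the difference was 0.17 (SE 0.14, adjusted p = 0.9995 in limma). Without mandibular 2 and tibial 3 it was 0.34 (SE 0.17, adjusted p = 0.672 in limma). RPL32 ranged over 0.63, with 6.07, 5.43 and 5.83 on mandibular and 5.50, 5.57 and 6.04 on tibial 1 to 3. Its 3 lowest values were those of mandibular 2, tibial 1 and tibial 2. RPL27A, with a range of 0.60, was an exception, with its highest value, 6.41, on tibial 1 and its lowest, 5.81, on tibial 2.

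RPL22, an RNA-binding large-subunit protein, had the smallest unadjusted p of all members, and in the opposite direction to most. RPL22 measured 2.09, 2.28 and 1.85 on mandibular and 2.20, 2.38 and 2.59 on tibial 1 to 3, a difference of -0.32 (SE 0.16, adjusted p = 0.9995 in limma). The sites overlap, since mandibular 2 lies above tibial 1. All 6 values lie below the lower quartile of their array and cannot be separated from background. RPS6 and RPL22 were the 2 members that did not pass the filter on low levels, which 39 of 41 passed.

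The members included 3 paralogue genes, none of them lowest on mandibular 2. RPS27L, a relative of RPS27 that p53 induces, measured 9.68, 9.63 and 9.63 on mandibular and 9.54, 9.50 and 9.58 on tibial 1 to 3. RPS27L was the 1 member whose sites did not overlap, with mandibular values above the tibial ones. Of all probe sets, 3.35% lacked overlap in that direction, 3.57% in the opposite one and 6.92% in either. Its difference was 0.11 (SE 0.10, adjusted p = 0.9995 in limma), or 1.08-fold. RPL26L1, a close relative of RPL26, measured 7.73, 7.62 and 7.77 on mandibular and 7.53, 7.36 and 7.76 on tibial 1 to 3, a difference of 0.16 (SE 0.14) with overlap at tibial 3. RPL7L1, a relative of RPL7 found in precursors of the 60S subunit, measured 11.28, 11.43 and 11.61 on mandibular and 11.14, 11.31 and 11.49 on tibial 1 to 3, a difference of 0.13 (SE 0.15). Their mandibular 2 value relative to mandibular 1 and 3 was -0.02 for RPS27L, -0.13 for RPL26L1 and -0.02 for RPL7L1. The median over all members was -0.29, and the difference was not tested. Small values were not particular to paralogues: RPS29 stood at -0.05, RPS12 at -0.07, RPS10 at -0.12 and the low-reading RPL22 at 0.31.

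For 9 members the annotation held more than 1 probe set. In RPL8, RPS27A and RPL7L1 both probe sets held identical values. In RPL13A and RPL19 the probe sets disagreed in sign. RPL13A, which can leave the ribosome to silence inflammatory mRNAs, measured 7.59, 7.19 and 7.49 on mandibular and 7.08, 7.66 and 7.65 on tibial 1 to 3 with the probe set used, a difference of -0.04 (SE 0.20). The other RPL13A probe set had a mean level of 4.49 and differed by 0.65 (SE 0.27). RPL19 differed by 0.10 (SE 0.13) with the probe set used and by -0.59 (SE 0.21) with another, whose mean level was 4.92. For all 4 probe sets limma gave an adjusted p of 0.9995.

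Genes of the same pathway were taken from lists of translation and ribosome assembly genes. No member of any of these lists was called by limma, where 0% of all probe sets were. A list of translation factors and other genes, drawn up for TOP mRNAs, had the same order of arrays by mean deviation as the ribosomal proteins. Whether each gene of the list has a TOP mRNA was not tested here. Of 20 measured, 11 were lowest on mandibular 2 and 7 on tibial 1, and their mean deviation was -0.14 on mandibular 2 and 0.11 on mandibular 3. EEF1B2, a subunit of the exchange factor for EEF1A1, was named after its values were seen. It measured 11.51, 11.06 and 11.50 on mandibular and 11.33, 11.38 and 11.53 on tibial 1 to 3. By the naming rule, HNRNPA1, an mRNA-binding protein, differed by 0.25 (SE 0.17), the EIF3 subunit gene EIF3M by 0.13 (SE 0.14) and the helicase gene EIF4A1 by 0.11 (SE 0.13). Their list had a median difference of 0.04, with 14 of 20 higher in mandibular cultures, against 51.3% of the other named genes.

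Mitochondrial ribosomal proteins, which build a separate ribosome inside mitochondria, had their lowest mean deviation on tibial 1. Of 54 measured, 29 were lowest on tibial 1 and 16 on mandibular 2, against 26.8% and 14.8% of the other named genes. The list's mean deviation was -0.15 on tibial 1 and -0.08 on mandibular 2. The list had a median difference of 0.03, with 33 of 54 higher in mandibular cultures, against 51.3% of the other named genes. MRPS10 differed by 0.20 (SE 0.11), MRPS26 by -0.25 (SE 0.15) and MRPL47 by 0.25 (SE 0.16).

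Ribosome biogenesis genes, which make and process ribosomal RNA and assemble subunits, were lowest on tibial 1 in 45 of 57 cases and on mandibular 2 in 6. Their mean deviation was -0.29 on tibial 1, -0.03 on mandibular 2, 0.20 on mandibular 3 and 0.14 on tibial 3. Of the other named genes, 26.8% were lowest on tibial 1, and 38.7% of those with a mean level of at least 8. The list's median difference was 0.13, with 51 of 57 higher in mandibular cultures, against 51.3% of the other named genes. Omitting tibial 1 gave a median of 0.01, omitting mandibular 3 gave 0.06 and omitting tibial 3 gave 0.22. The nucleolar RNA-guided modification gene NOP10 differed by -0.25 (SE 0.10), the small-subunit assembly gene KRR1 by 0.34 (SE 0.15) and EBNA1BP2, of large-subunit assembly, by 0.34 (SE 0.16). NOP10 was the 1 gene of the 57 with an unadjusted limma p below 0.05, against 3.03% of all probe sets.

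**Figure D4:**
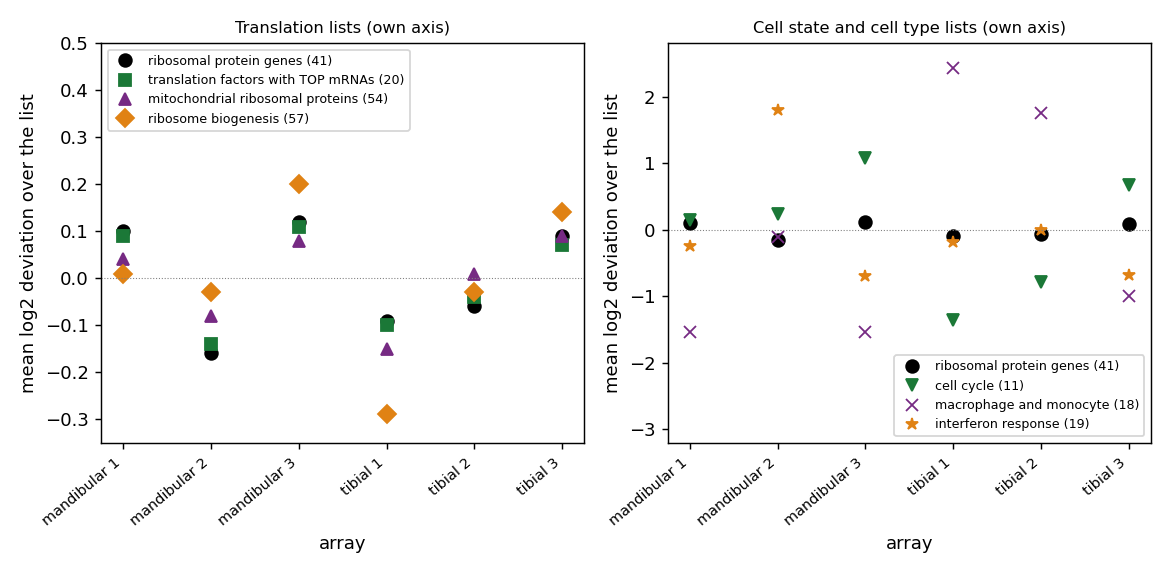
Mean log2 deviation of each list on each array, from each gene's own 6-array mean; the number of genes is in brackets, and the panels have different vertical axes. On mandibular 2 the ribosomal proteins stand at -0.16 and the ribosome biogenesis genes at -0.03, while the interferon response genes stand at 1.80.

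Regulators of ribosomal protein output, measured as RNA, were nearly level between the sites in their list median. The list of mTOR, S6 kinase and MYC genes had a median difference of 0.00, with 9 of 18 higher in mandibular cultures. By the naming rule, the kinase gene RPS6KA1 differed by -0.92 (SE 0.51), the mTOR inhibitor gene TSC2 by -0.13 (SE 0.11) and MYC by 0.15 (SE 0.14). RPS6KA1 measured 7.60 on tibial 1 and 6.36 on tibial 2, and 5.22 to 5.71 elsewhere. The list for MDM2 and p53, which sense ribosomal proteins not built into ribosomes, had a median difference of -0.09, with 5 of 11 higher. Its named genes were SESN1 at -0.35 (SE 0.21), BAX at -0.11 (SE 0.11) and BBC3 at 0.15 (SE 0.15).

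Interferon response, cell cycle and macrophage genes varied more over these arrays, with median ranges of 2.97, 2.57 and 4.45 log2 units against 0.39 for the ribosomal proteins. The interferon response list, added with earlier results known, had a mean deviation of 1.80 on mandibular 2 and from -0.70 to 0.00 elsewhere. Of its 19 measured genes, 18 were highest on mandibular 2, the array with the lowest ribosomal protein levels. Its named genes were EIF2AK2, a kinase that halts translation when it binds double-stranded RNA, at 0.81 (SE 0.37), IFIH1 at 0.75 (SE 0.42) and OASL at -0.34 (SE 0.20). Without mandibular 2 these were 0.38, 0.25 and -0.38, and the list's median difference turned from 0.75 to -0.04. EIF2AK2 measured 9.10 on mandibular 2 and from 7.26 to 8.03 elsewhere.

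Cell cycle genes had a mean deviation of -1.36 on tibial 1 and -0.78 on tibial 2, and of 0.24 on mandibular 2. Of the 11 measured, 10 were lowest on tibial 1, against 26.8% of genes outside the ribosomal protein list. The named cell cycle genes were MYBL2 at 1.08 (SE 0.50), TPX2 at 1.22 (SE 0.57) and ANLN at 1.06 (SE 0.51). Without tibial 1 these were 0.66, 0.79 and 0.67, and without tibial 3 they were 1.60, 1.87 and 1.66. The list's median difference was 1.01, and 0.56 and 1.63 in these omissions. Macrophage and monocyte genes had a mean deviation of 2.43 on tibial 1, 1.75 on tibial 2 and -0.11 on mandibular 2, against -1.53, -1.54 and -0.99 on mandibular 1, mandibular 3 and tibial 3. All 18 measured were lower in mandibular cultures, 7 with an unadjusted limma p below 0.05, where 3.03% of all probe sets had one, and 0 after adjustment. Their median difference of -2.27 was -1.52 without tibial 1 and -3.45 without tibial 3, and -3.85 without mandibular 2 and tibial 3. Their list mean ranged from 4.71 to 6.14 in mandibular and from 5.26 to 8.68 in tibial cultures. The myeloid factor gene SPI1 differed by -1.96 (SE 0.69), CD14 by -0.77 (SE 0.29) and ITGAM by -0.33 (SE 0.12).

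Stromal markers had a median difference of -0.01, with differences from -0.71 to 1.39 and 6 of 13 higher in mandibular cultures. Of the 13, 7 were lowest on mandibular 2, tibial 1 or tibial 2, against 58.7% of the other named genes. The lowest array was mandibular 3 for 3 of the 13, tibial 3 for 2 and mandibular 1 for 1, so the list as a whole did not share the arrangement. NT5E went the other way, highest on tibial 1, at 9.13, and lowest on mandibular 3, at 7.05. POSTN, LUM and CD44, named after their values were seen, were among the 7. POSTN measured 11.89, 5.60 and 9.59 on mandibular and 7.01, 4.50 and 11.40 on tibial 1 to 3. LUM, a matrix proteoglycan gene, measured 12.64, 11.79 and 12.27 on mandibular and 11.66, 12.06 and 12.74 on tibial 1 to 3. CD44, a hyaluronan receptor gene, measured 7.56, 7.40 and 8.19 on mandibular and 6.44, 7.01 and 8.13 on tibial 1 to 3. ENG differed by 0.52 (SE 0.23), DCN by -0.71 (SE 0.46), or -0.20 without mandibular 2, and SPARC by -0.16 (SE 0.13). Of 6 common reference genes, 0 were higher in mandibular cultures, and the median difference was -0.05. GUSB differed by -0.52 (SE 0.25), HPRT1 by -0.07 (SE 0.14) and PGK1 by -0.09 (SE 0.26). On mandibular 2 the mean deviation of these 6 genes was 0.09, where that of the ribosomal proteins was -0.16. The median deviation of the 6 there was 0.03, with 2 below their own mean. B2M, at 11.42, and PGK1, at 11.30, lay furthest above theirs. The part of interferon response, cell division, macrophage RNA and stromal composition in the ribosomal protein levels was not tested.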

How the data were processed

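The 6 arrays were hybridised with total RNA of 3 mandibular and 3 tibial cultures. The deposited values are log2 levels per probe set. The authors used Affymetrix Expression Console, Transcriptome Analysis Console 3.0 and RMA, per the submitters' processing notes. RMA equalises the distributions of the arrays and so removes a change shared by all genes. For settings and genome build, nothing is given in the sources used here. The values carry no detection call. Precision is limited by the number of arrays.

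Symbols came from GEO's platform annotation: 13157 probe sets had 1 symbol, 523 several and 13878 none. Differences were fitted unpaired with limma version 3.58.1 (R version 4.3.3; lmFit, eBayes, two-sided, Benjamini-Hochberg over 27558 probe sets). P-values measure the spread between these arrays, some of which share a pig. In simulated data for this comparison over 27558 probe sets, the fit recovered 35.4% of changes of 1 log2 unit and 84% of changes of 2. The simulated noise was independent between probe sets and arrays, unlike the shared spread seen here. Changes as small as the members' differences were not simulated. A mean deviation is the average, over a list, of each gene's level minus its 6-array mean.

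Members and lists were chosen with earlier results of these data known. Named members were the 4 with the smallest p in each direction, the 6 with the largest and 3 with the smallest range, members whose probe sets disagree in sign by over 0.2, and a written set of stalk, paralogue and regulatory genes. Companion lists gave the 3 genes with the smallest p. Alternatives were other scalings, a low-level filter (at least 5 on 3 arrays), other variance models, array weights, the label number as a block and omission of arrays. Deviations of same-numbered arrays correlated at -0.03, 0.21 and 0.47, and those of different-numbered arrays at -0.49 to 0.36. The numbers were not taken as pairs because no label ties them to a pig. Whether they mark pigs was not tested.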

Additional observations from a re-analysis of the deposited data

How the results depend on the processing

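No setting called a ribosomal protein gene. Over all probe sets, limma called 0 with all arrays, 0 to 2 when single arrays were left out, and 195 without mandibular 2 and tibial 3. The last count is no independent test, since those arrays were singled out from these same data. The replicate block, with the label number as a block, called 0 probe sets, with 1511 below an unadjusted p of 0.05 against 836 without the block. The design is balanced, so the block could not move any member's estimate. With it 0 members were called. The number of members higher in mandibular cultures ran from 16 to 40 over single omissions, and the median difference from -0.02 to 0.12. Without mandibular 2 and tibial 3 that median was 0.17. In that fit the medians of other lists were 0.21 for other ribosome components, 0.16 for translation factors, 0.04 for mTOR and MYC regulators, 0.27 for ribosome biogenesis, 0.13 for mitochondrial ribosomal proteins, 1.76 for cell cycle, -3.85 for macrophage, -0.28 for reference and -0.32 for interferon response genes. With all arrays these were 0.07, 0.04, 0.00, 0.13, 0.03, 1.01, -2.27, -0.05 and 0.75, so the interferon median changed sign. Over single omissions the mTOR and MYC list ran from -0.05 to 0.03 and the MDM2 and p53 list from -0.09 to 0.06.

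Small member differences changed sign, none of them called. With each array centred on its median, RPL27A, RPL5 and RPS12 were at 0.01. Array weights put RPL27A at 0.09. Averaging the probe sets of a gene put RPL13A at 0.30 and RPL19 at -0.24. Without mandibular 2 and tibial 3, RPL13A was at 0.17, RPL27A at 0.06, RPL5 at 0.14, RPLP0 at 0.07, RPS12 at 0.01, RPS25 at 0.22 and RPS3 at 0.06. Over single omissions, RPL32 ran from -0.07 to 0.25, RPL7 from -0.04 to 0.17, RPS10 from -0.02 to 0.06, RPL13A from -0.23 to 0.08 and RPL27A from -0.16 to 0.14. RPL5 ran from -0.11 to 0.12, RPLP0 from -0.11 to 0.04, RPS25 from -0.15 to 0.12, RPS3 from -0.16 to 0.04 and RPL3 from -0.03 to 0.13. RPS27A ran from -0.01 to 0.13, RPS29 from -0.11 to 0.24, RPS4X from -0.01 to 0.11, RPS6 from -0.02 to 0.66 and RPS12 from -0.05 to 0.01. The cause was not tested. Without the paralogues, or with members of a mean level of at least 8 (chosen after seeing the data), 24 of 38 and 20 of 31 were higher in mandibular cultures. Of other named genes with a mean level of at least 8, 59.6% were.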
